A study of Mus musculus with 40 samples.

Results

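The genes for the calcineurin (Cn) subunits and the NFAT factors were followed through 40 RNA-seq libraries of mouse aorta. The set was the 9 genes whose symbols were listed for it (the regulatory subunit Ppp3r1, the catalytic subunits Ppp3ca, Ppp3cb, and Ppp3cc, and the factors Nfatc1, Nfatc2, Nfatc3, Nfatc4, and Nfat5), and all 9 were found among the 17402 genes of the genotype table and among the 15399 of the CsA table. In the genotype experiment (22 libraries), the labels give male mice with floxed Ppp3r1 (CnB1-flox) that either lacked Myh11-CreERT2 (Cn-Ctl, 10 libraries) or carried it (SM-Cn-/-, 12 libraries). Both groups had received tamoxifen, 1 mg daily for 5 days from an age of 10 to 12 weeks, and 6 weeks later were left untreated or given angiotensin II (Ang-II), a peptide hormone that raises blood pressure, at 1 µg/kg/min from a minipump over 2, 6, or 24 h. In the CsA experiment (18 libraries), male wild-type (WT) C57BL/6J mice had received cyclosporin A (CsA), an inhibitor of the phosphatase activity of Cn, by minipump for 5 days at 5 mg/kg/day, or no CsA, and were then untreated or given the same Ang-II dose for 2 or 24 h. These mice were 10 to 12 weeks old at the start, and had no tamoxifen and no wait of 6 weeks. There were 3 libraries per group, except for 2 in untreated Cn-Ctl and 2 in Cn-Ctl at 24 h.

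Several features limit the groups as models. Each library pools 3 aortas stripped of adventitia and perivascular tissue. The Cre is driven by the Myh11 promoter, so that endothelial and other cells of the aorta keep Ppp3r1, and the transgene restricts the experiment to males. The labels give all Cn-Ctl libraries as floxed and Cre-negative, while the methods of the study also count mice with the Cre and unfloxed Ppp3r1 among its controls. With the labels as given, the Cre cannot be told apart from the deletion. WT mice in the CsA experiment had no pump during the pretreatment, so the first pump cannot be told apart from CsA. Treated mice were kept only when their systolic pressure was raised, except in SM-Cn-/-, where blood pressure was not used to choose mice. The study also removed SM-Cn-/- mice without a verified deletion and CsA-treated mice without verified inhibition of NFAT dephosphorylation in the thymus.

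Calcineurin is a phosphatase that is switched on by calcium and calmodulin. It consists of a catalytic A subunit (from Ppp3ca, Ppp3cb, or Ppp3cc) and the calcium-binding regulatory subunit B, which in most tissues is the product of Ppp3r1. Active Cn removes phosphates from the cytoplasmic factors NFATc1 to NFATc4, which then enter the nucleus and bind DNA at sites with the core GGAAA, often together with AP-1 proteins, until kinases such as GSK3, DYRK, and casein kinase 1 return them to the cytoplasm. NFAT5 shares the DNA-binding domain but not the Cn docking region, and is best known for the response to osmotic stress. In smooth muscle, Ang-II raises intracellular calcium, and Cn-NFAT signalling is known for its part in vascular remodelling. RNA levels, measured here, do not show phosphatase activity or the location of an NFAT protein.

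The values were the deposited normalized signal. It is not RPM (reads scaled by library size alone), because its total per library differed between groups. In Cn-Ctl the total was 957507 and 963159 untreated and 1105205 to 1179362 at 2 h. In SM-Cn-/- it was 919723 to 967779 and 938859 to 1027236. In WT it was 877583 to 939727 untreated and 1040808 to 1154874 at 2 h, and in CsA 907723 to 949677 and 994178 to 1153694. Fold changes between these groups are therefore not those of RPM. The genotype libraries held 2.73 to 10.25 M assigned reads (M, mega; median 6.52 M) and the CsA libraries 18.98 to 38.9 M (median 22.82 M). Because the depth differed, the calls of the 2 experiments were not set against each other. The smooth muscle markers Myh11, Acta2, Tagln, Cnn1, Smtn, Myocd, and Lmod1 summed to a signal of 16292 to 49393, far above the 6 endothelial markers (299.5 to 1319) or the 6 macrophage markers (47.6 to 242). T cell markers were low, at a summed signal of 0.499 to 25.3, from 5 of 7 genes in the genotype table and 3 of 7 (Lck, Cd4, and Cd8a) in the CsA table. Cd3d and Cd3e, which define T cells, were among the genes of neither table. In bulk tissue, fewer cells of a type and less RNA per cell cannot be told apart. Differences were tested with limma on log2(signal + 0.5) over 14424 protein-coding genes of the genotype table and 13738 of the CsA table. A gene was called when its Benjamini-Hochberg adjusted p was under 0.05, and log2 fold changes are on this scale, which understates the change of low genes. The p-values measure the spread between pooled libraries.

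Promoter sequence was available for 6 of the 9 genes, as 8 windows of the 250 bases before a RefSeq start site (build GRCm38.p6). They were searched on both strands for the NFAT core GGAAA, which reads TTTCC on the other strand, and the sequences are shown, 5′ to 3′ on the strand of the gene with each match in capitals, for Nfatc2, Nfat5, and Nfatc4, whose RNA changed after Ang-II, and for Ppp3r1, the gene with the floxed allele.
Nfatc2, first start site, chr2:168601658-168601907, minus strand: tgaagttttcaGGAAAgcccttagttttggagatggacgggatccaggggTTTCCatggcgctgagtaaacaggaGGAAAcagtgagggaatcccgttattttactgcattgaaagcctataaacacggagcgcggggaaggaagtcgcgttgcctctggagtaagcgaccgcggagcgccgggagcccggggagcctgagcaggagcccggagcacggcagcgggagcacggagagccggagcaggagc
Nfat5, chr8:107293220-107293469, plus strand: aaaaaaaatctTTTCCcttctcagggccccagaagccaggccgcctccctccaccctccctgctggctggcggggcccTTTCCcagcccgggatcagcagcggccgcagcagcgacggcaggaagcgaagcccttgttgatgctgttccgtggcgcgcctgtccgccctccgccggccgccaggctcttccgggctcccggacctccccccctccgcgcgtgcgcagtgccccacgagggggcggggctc
Nfatc4, chr14:55824545-55824794, plus strand: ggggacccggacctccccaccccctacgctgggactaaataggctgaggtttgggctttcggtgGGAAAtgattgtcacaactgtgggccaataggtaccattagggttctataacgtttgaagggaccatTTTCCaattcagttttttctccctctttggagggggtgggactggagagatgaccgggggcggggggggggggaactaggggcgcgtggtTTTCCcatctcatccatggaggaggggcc
Ppp3r1, chr11:17159048-17159297, plus strand: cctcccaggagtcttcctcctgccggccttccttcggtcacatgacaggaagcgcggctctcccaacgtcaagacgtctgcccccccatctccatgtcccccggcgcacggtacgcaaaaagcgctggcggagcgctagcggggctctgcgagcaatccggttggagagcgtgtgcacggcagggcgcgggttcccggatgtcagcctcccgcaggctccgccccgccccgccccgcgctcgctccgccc
The window of the first Nfatc2 start site and those of Nfatc4 and Ppp3cb held 3 matches each, and the Nfat5 window held 2. The second Nfatc2 start site and the first of Nfatc3 had 1 match each, and the second of Nfatc3 and the Ppp3r1 window had 0. Of 32851 promoters of the same length, 55.6% held the core at least once and 6.4% held it at least 3 times, so that a match is common. The AP-1 site TGANTCA, which 6.7% of the promoters held, and the CRE site TGACGTCA, held by 1.5%, had 0 matches in the 8 windows. Both of these sites read alike on the 2 strands when written in full.

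In GRCm38, Ppp3cb (chr14:20499364-20546573), Nfatc4 (chr14:55823144-55833943), and Ppp3cc (chr14:70217865-70289471) lie on chromosome 14, and Nfatc3 (chr8:106058840-106130537) and Nfat5 (chr8:107293470-107379517) on chromosome 8. The other 4 are Nfatc2 (chr2:168476410-168601657), Ppp3ca (chr3:136670124-136937727), Ppp3r1 (chr11:17159263-17200375), and Nfatc1 (chr18:80606205-80713071). Ppp3r1 shares 462 of its 3228 exonic bases with Wdr92 on the same strand, and reads in these bases could be assigned to either gene. The Wdr92 signal was 1.50 to 17.2 in the genotype experiment and 4.34 to 10.7 in the CsA experiment. Nfatc3 shares 219 of 11726 exonic bases with Esrp2 and Ppp3cc shares 91 of 2985 with Gm49417, both on the opposite strand, and the strand setting of the counting is not given in the sources used here.

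In untreated WT aorta, Ppp3r1 had the highest level per length and Nfatc2 the lowest. As normalized signal per kilobase of the longest transcript (mean ± SD, n = 3), Ppp3r1 was at 30.9 ± 0.768 and Ppp3cb, the most abundant catalytic subunit, at 23.3 ± 1.68. Nfat5 (14.4 ± 0.662) and Ppp3ca (14.1 ± 0.873) followed and did not differ beyond their spread. Among the Cn-dependent factors the order was Nfatc4 (11.3 ± 1.26), Nfatc3 (8.14 ± 0.550), Nfatc1 (6.61 ± 0.302), and Nfatc2 (0.513 ± 0.0994), with Ppp3cc at 3.68 ± 0.132 below Nfatc1. Untreated Cn-Ctl aorta (n = 2) gave the same 2 genes at the top and Nfatc2 at the bottom, with Ppp3r1 at 31.9 ± 6.22 and Ppp3cb at 27.2 ± 5.40 within their spread of each other, and Nfatc4 (5.82 ± 1.23), Ppp3cc (5.56 ± 0.455), and Nfatc1 (4.51 ± 0.908) close together. The rank of Nfat5 rests on the transcript chosen: with the median transcript length of each gene it was the highest of the 9 in WT, at 35.1 ± 1.62 per kilobase.

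Ppp3r1, the gene targeted in SM-Cn-/- mice, was detected in all libraries of both genotypes. In Cn-Ctl its signal was 104 and 78.8 in the untreated libraries, 84.8, 86.4, and 134 at 2 h, 98.2, 116, and 48.1 at 6 h, and 80.3 and 45.7 at 24 h. In SM-Cn-/- it was 83.5, 69.5, and 48.8 untreated, 118, 93.5, and 70.1 at 2 h, 82.5, 41.8, and 45.3 at 6 h, and 84.1, 84.4, and 54.4 at 24 h. The genotypes overlapped at every time, and the mean was 73.0 ± 22.5 (SD, n = 12) in SM-Cn-/- against 87.6 ± 27.5 (n = 10) in Cn-Ctl. The difference, averaged over the times, was a log2 value of -0.23 (p = 0.2525, exact two-sided permutation test within times over 40000 arrangements). Set against the summed signal of the 3 catalytic subunits in the same library, the ratio had a geometric mean over all libraries of 0.400 in SM-Cn-/- and 0.477 in Cn-Ctl. Its log2 difference, averaged over the times, was -0.22 (p = 0.1757, the same exact permutation test). Adjusted over these 2 tests, p was 0.2525 for both. The ratio was computed after the values had been seen. The limma interval of the first difference, -0.59 to 0.13 on the log2 scale, leaves room for a fall within that bound or a small rise. One value per gene does not show the floxed exons, and cells other than smooth muscle keep the gene. The part of either in these values was not tested. These values do not check the genotype labels, which are used as given. Recombination was checked in the study by PCR on a piece of aorta. Immunoblots of aortic extracts from SM-Cn-/- mice in the study also showed less protein of the Cn A and B subunits.

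In the CsA experiment Ppp3r1 was steadier. The 9 WT libraries ranged from 80.2 to 99.7 (median 87.7) and the 9 CsA libraries from 75.3 to 112 (median 81.9). The groups overlapped, and Ppp3r1 was called in none of the comparisons of either experiment.

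**Figure D1:**
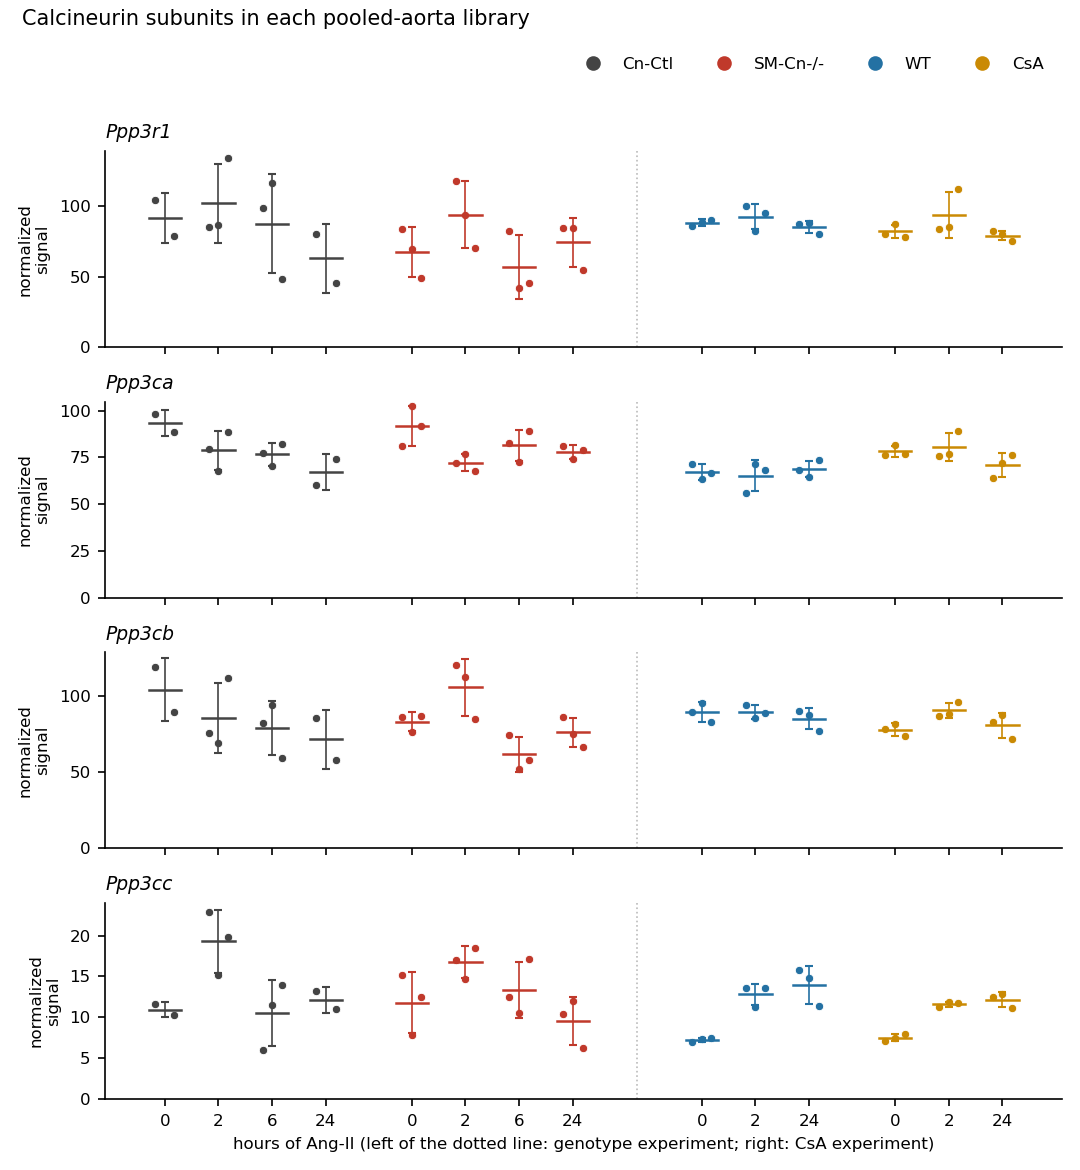
Normalized signal of the 4 Cn subunit genes (y axes, from 0) in each library, by hours of Ang-II (x axis), for Cn-Ctl and SM-Cn-/- (left of the dotted line) and WT and CsA (right). Points are libraries, horizontal lines are means, and error bars are SD. Ppp3r1 overlaps between Cn-Ctl (45.7 to 134) and SM-Cn-/- (41.8 to 118), and Ppp3cc is higher in the treated than in the untreated libraries of the CsA experiment.

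Of the catalytic subunits, Ppp3cc rose after Ang-II. Its protein is the A subunit best known from testis, and it was the lowest of the 3 in the aorta. In WT its signal was 6.96, 7.36, and 7.44 in the untreated libraries, 13.5, 11.3, and 13.59 at 2 h, and 15.8, 14.8, and 11.4 at 24 h. In CsA-pretreated aorta it was 7.12, 7.44, and 7.99 untreated, 11.3, 11.8, and 11.7 at 2 h, and 12.5, 12.9, and 11.1 at 24 h. In both, every treated library lay above every untreated library. Of all genes, 40.5% at 2 h and 51.0% at 24 h were separated from untreated in WT, in either direction. In CsA these shares were 36.9% and 29.2%. The log2 fold change at 2 h was 0.77 in WT (SE 0.12, adjusted p = 0.00032) and 0.60 in CsA (SE 0.12, adjusted p = 0.0036), and at 24 h it was 0.89 (SE 0.12, adjusted p = 5.09e-05) and 0.66 (SE 0.12, adjusted p = 0.0049), all by limma. These 4 calls held under all 12 alternative settings and without any single library.

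The genotype libraries held 30 to 129 reads of Ppp3cc and were more scattered. In Cn-Ctl the signal was 11.6 and 10.3 untreated, 22.8, 15.2, and 19.8 at 2 h, 6.05, 11.5, and 13.9 at 6 h, and 13.3 and 11 at 24 h. In SM-Cn-/- it was 15.2, 7.78, and 12.5 untreated, 17.03, 14.7, and 18.5 at 2 h, 12.5, 10.5, and 17.2 at 6 h, and 10.4, 11.97, and 6.30 at 24 h. The 2 h libraries of Cn-Ctl lay above the untreated ones and those of SM-Cn-/- overlapped them, and neither passed the test (log2 fold change 0.77, adjusted p = 0.26, and 0.53, adjusted p = 0.50, limma).

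Ppp3ca and Ppp3cb, the widely expressed catalytic subunits, were not called in any comparison of Ang-II with untreated aorta. In Cn-Ctl the Ppp3ca signal was 98.2 and 88.61 untreated, 79.7, 67.8, and 88.57 at 2 h, 77.4, 70.2, and 82.3 at 6 h, and 60.4 and 74.2 at 24 h. In SM-Cn-/- it was 80.9, 102, and 91.7 untreated, 72.2, 76.8, and 67.6 at 2 h, 82.5, 72.7, and 89.4 at 6 h, and 81.2, 73.9, and 78.8 at 24 h. Every treated Cn-Ctl library and every 2 h SM-Cn-/- library lay below the untreated libraries of its genotype, with log2 changes of -0.48 at 24 h in Cn-Ctl (SE 0.18, adjusted p = 0.14) and -0.34 at 2 h in SM-Cn-/- (SE 0.15, adjusted p = 0.34) that limma did not call. Such separation, in either direction, held for 39.1%, 34.0%, and 49.8% of all genes at 2, 6, and 24 h in Cn-Ctl. It held for 20.5% at 2 h in SM-Cn-/-. In the CsA experiment Ppp3ca ranged from 56.1 to 73.5 in WT (median 68.1) and from 63.9 to 88.9 in CsA (median 76.4). Ppp3ca did differ between pretreatments when averaged over the times, with a log2 difference of CsA minus WT of 0.19 (SE 0.06, adjusted p = 0.022, limma), while no single time passed the test. Ppp3cb went in SM-Cn-/- from a mean of 83.1 ± 6.02 (SD, n = 3) untreated to 106 ± 18.6 at 2 h, 61.7 ± 11.5 at 6 h, and 76.0 ± 9.67 at 24 h, with all 6 h libraries below the untreated ones (log2 change -0.44, SE 0.22, adjusted p = 0.32, limma). Of all genes, 18.9% were separated at 6 h in SM-Cn-/-, in either direction. Over the times Ppp3cb ranged from 52.4 to 120 in SM-Cn-/-, 57.9 to 119 in Cn-Ctl, 71.7 to 96.1 in CsA, and 77.04 to 95.6 in WT, and the log2 difference of CsA minus WT averaged over the times was -0.08 (95% interval -0.19 to 0.02). In the genotype experiment its averaged difference was -0.06 (95% interval -0.30 to 0.18).

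Of the NFAT genes, Nfatc2, the lowest of the 5 per length, had the largest fold change of the 9 genes at 2 h in WT. Its product, also called NFAT1, is a main NFAT of lymphocytes. In WT its signal was 3.21, 3.02, and 4.28 untreated, 8.39, 8.09, and 7.53 at 2 h, and 5.00, 4.90, and 4.29 at 24 h. In CsA it was 5.68, 6.05, and 5.91 untreated, 10.1, 13.3, and 10.1 at 2 h, and 6.51, 5.13, and 5.98 at 24 h, with 80 to 298 reads per library over the CsA experiment. In both, the 2 h libraries lay above all untreated and all 24 h libraries. Between 2 h and 24 h, 48.3% of all genes in WT and 33.6% in CsA were separated, in either direction. The log2 fold change at 2 h was 1.10 in WT (SE 0.15, adjusted p = 7.99e-05) and 0.86 in CsA (SE 0.15, adjusted p = 0.0011), and from 2 h to 24 h it fell by 0.70 (SE 0.15, adjusted p = 0.0017) and by 0.86 (SE 0.15, adjusted p = 0.0013), by limma. At 24 h WT was above untreated by 0.40 (adjusted p = 0.049), a call that 8 of the 12 alternatives lost and that held in only 5 of the 18 fits without a library (those without WT untreated replicate 3, WT 24 h replicate 3, CsA 2 h replicate 2 or 3, or CsA 24 h replicate 2). Its adjusted p reached 0.18 without WT untreated replicate 2. The summed T cell markers were 1.399 to 2.86 in untreated WT and 1.56 to 25.3 at 2 h, and 1.752 to 3.20 and 1.99 to 6.31 in CsA. Their part in the Nfatc2 values was not tested.

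In the genotype experiment Nfatc2 had between 2 and 75 reads per library. The Cn-Ctl libraries stood at 5.32 and 2.10 untreated, 7.08, 10.3, and 10.6 at 2 h, 3.63, 6.17, and 5.80 at 6 h, and 4.65 and 0.647 at 24 h. Those of SM-Cn-/- stood at 1.27, 6.00, and 7.07 untreated, 10.4, 5.07, and 7.03 at 2 h, 9.32, 10.8, and 2.95 at 6 h, and 4.88, 3.78, and 2.35 at 24 h. The 2 h libraries of Cn-Ctl were above the untreated ones, those of SM-Cn-/- were not separated from them, and no change passed the test (2 h log2 fold change 1.32, SE 0.66, adjusted p = 0.29, and 0.80, SE 0.59, adjusted p = 0.58, limma). At this depth the 95% intervals, -0.05 to 2.69 and -0.43 to 2.02, include the WT value.

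Nfatc1, whose product NFAT2 is known from heart valve and osteoclast development, was higher at 2 h than before in all 4 backgrounds. In WT its signal was 30.1, 32.7, and 32.5 untreated, 55.9, 40.4, and 48.5 at 2 h, and 24.6, 27.9, and 20.9 at 24 h. In CsA it was 30.7, 28.3, and 31.2 untreated, 44.4, 61.6, and 43.1 at 2 h, and 23.8, 26.5, and 27.7 at 24 h. The 2 h libraries were the highest and the 24 h libraries the lowest, without overlap. Separation of 24 h from untreated, in either direction, held for 51.0% of all genes in WT and 29.2% in CsA. Separation of 24 h from 2 h held for 48.3% and 33.6%. The rise at 2 h was 0.59 on the log2 scale in WT (SE 0.14, adjusted p = 0.0067) and 0.70 in CsA (SE 0.14, adjusted p = 0.0031), and the fall from 2 h to 24 h was -0.96 (adjusted p = 9.16e-05) and -0.91 (adjusted p = 0.00063), by limma. WT at 24 h was below untreated by -0.38 (adjusted p = 0.047), which was lost under 5 of 12 alternatives and in 11 of 18 fits without a library. These were the fits without any 1 of the WT or CsA untreated libraries, WT 2 h replicate 3, WT 24 h replicate 1 or 3, or CsA 24 h replicate 1 or 2, with an adjusted p of up to 0.19 without WT 24 h replicate 3.

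In Cn-Ctl, Nfatc1 stood at 18.6 and 24.7 untreated, 41.4, 45.9, and 35.9 at 2 h, 31.0, 32.4, and 24.6 at 6 h, and 21.02 and 20.8 at 24 h. In SM-Cn-/- it stood at 21.3, 11.9, and 24.4 untreated, 32.7, 27.8, and 32.6 at 2 h, 32.8, 38.3, and 25.2 at 6 h, and 37.4, 30.3, and 22.4 at 24 h. All 2 h libraries were above the untreated ones in both genotypes, but by 24 h the Cn-Ctl libraries were back at the untreated level and the SM-Cn-/- libraries overlapped their 2 h level. The 2 h change was 0.92 in Cn-Ctl (SE 0.28, adjusted p = 0.056) and 0.74 in SM-Cn-/- (SE 0.25, adjusted p = 0.19), and from 2 h to 24 h it was -0.95 in Cn-Ctl (SE 0.28, adjusted p = 0.043) and -0.07 in SM-Cn-/- (SE 0.25, adjusted p = 0.92), by limma. The -0.95 was lost under 4 of 12 alternatives and in 8 of 22 fits without a library, those without any 1 of the 5 Cn-Ctl libraries of 2 h and 24 h, SM-Cn-/- 2 h replicate 1 or 2, or SM-Cn-/- 24 h replicate 2, with an adjusted p of up to 0.24 without Cn-Ctl 24 h replicate 3. The response to 24 h of Ang-II differed between the genotypes by 0.70 (95% interval -0.13 to 1.53, adjusted p = 0.54, limma), so that a difference was not shown.

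Nfat5, the gene of the osmotic-response factor without the Cn docking region, rose at 2 h. In Cn-Ctl the libraries stood at 196 and 186 untreated, 395, 369, and 300.0 at 2 h, 214, 245, and 180.1 at 6 h, and 199 and 176 at 24 h. In SM-Cn-/- they stood at 174, 171, and 159 untreated, 232, 248, and 194 at 2 h, 171, 176, and 172 at 6 h, and 193, 159, and 168 at 24 h. In both genotypes every 2 h library was above every untreated and every 24 h library, and the 2 h libraries of Cn-Ctl were above those of SM-Cn-/-. Between 2 h and 24 h, 38.1% of all genes in Cn-Ctl and 29.5% in SM-Cn-/- were separated, in either direction. At 2 h Cn-Ctl had a log2 fold change of 0.88 (SE 0.16, adjusted p = 0.0013) and SM-Cn-/- one of 0.41 (SE 0.15, adjusted p = 0.21), by limma. With quantile normalization the Cn-Ctl change was 0.50 (adjusted p = 0.063, limma), the only alternative that ended this call.

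In WT, Nfat5 stood at 202, 191, and 184 untreated, 361, 229.8, and 322 at 2 h, and 262, 209, and 227 at 24 h. In CsA it stood at 164, 139, and 135 untreated, 203, 261, and 243 at 2 h, and 212, 213, and 177 at 24 h. Again each 2 h library was above each untreated library, and the untreated CsA libraries were below the untreated WT ones. The rise at 2 h was 0.64 in WT (SE 0.15, adjusted p = 0.0054) and 0.69 in CsA (SE 0.15, adjusted p = 0.0047), by limma, and with quantile normalization the WT change was 0.33 (adjusted p = 0.079). At 24 h the change was 0.27 in WT (adjusted p = 0.17) and 0.46 in CsA (adjusted p = 0.062), neither of which was called by limma.

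Nfatc4, the NFAT3 of heart and muscle studies, was the gene of the set called lower at 2 h in the CsA experiment. In WT it stood at 39.6, 40.2, and 48.1 untreated, 31.8, 31.9, and 28.3 at 2 h, and 44.7, 38.9, and 42.0 at 24 h. In CsA it stood at 34.8, 33.6, and 35.7 untreated, 29.5, 27.9, and 28.04 at 2 h, and 43.3, 36.8, and 41.5 at 24 h. All 2 h libraries were below all untreated and all 24 h libraries of the same pretreatment. Between 2 h and 24 h, 48.3% of all genes in WT and 33.6% in CsA were separated, in either direction. The fall at 2 h was -0.46 in WT (SE 0.09, adjusted p = 0.0017) and -0.28 in CsA (SE 0.09, adjusted p = 0.038), and the rise from 2 h to 24 h was 0.44 (adjusted p = 0.0014) and 0.50 (adjusted p = 0.0018), by limma. The -0.28 was lost under 2 alternatives and in the fits without any 1 of the untreated CsA libraries or without CsA 2 h replicate 2 or 3, with an adjusted p of up to 0.11 without CsA 2 h replicate 2.

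In the genotype experiment Nfatc4 stood at 25.3 and 18.7 in untreated Cn-Ctl, 21.04, 24.7, and 19.4 at 2 h, 34.4, 27.2, and 39.7 at 6 h, and 30.3 and 33.0 at 24 h. In SM-Cn-/- it stood at 24.0, 28.7, and 26.4 untreated, 19.9, 19.2, and 33.9 at 2 h, 30.6, 38.6, and 47.4 at 6 h, and 29.8, 28.03, and 29.0 at 24 h. The 6 h libraries lay above the untreated ones in both genotypes, where 34.0% of all genes in Cn-Ctl and 18.9% in SM-Cn-/- were separated in either direction. The log2 changes of Nfatc4 at 6 h were 0.61 (SE 0.26, adjusted p = 0.22) and 0.53 (SE 0.23, adjusted p = 0.24), which limma did not call, and the 2 h changes were -0.01 and -0.16.

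Nfatc3, whose product NFAT4 is widely expressed, was not called at 2 h of Ang-II in any background. Its signal ranged from 30.6 to 52.4 in Cn-Ctl (median 41.7), from 19.3 to 48.8 in SM-Cn-/- (median 39.6), from 42.3 to 58.2 in WT (median 49.9), and from 37.9 to 51.7 in CsA (median 43.5). Its single call after Ang-II was between 2 h (41.2, 37.9, and 38.4) and 24 h (50.4, 50.3, and 46.0) in CsA, without overlap (as for 33.6% of all genes), at a log2 change of 0.32 (SE 0.10, adjusted p = 0.036, limma). That call was lost in the fits without CsA 2 h replicate 2 or 3 or without CsA 24 h replicate 1 or 2, with an adjusted p of up to 0.10.

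**Figure D2:**
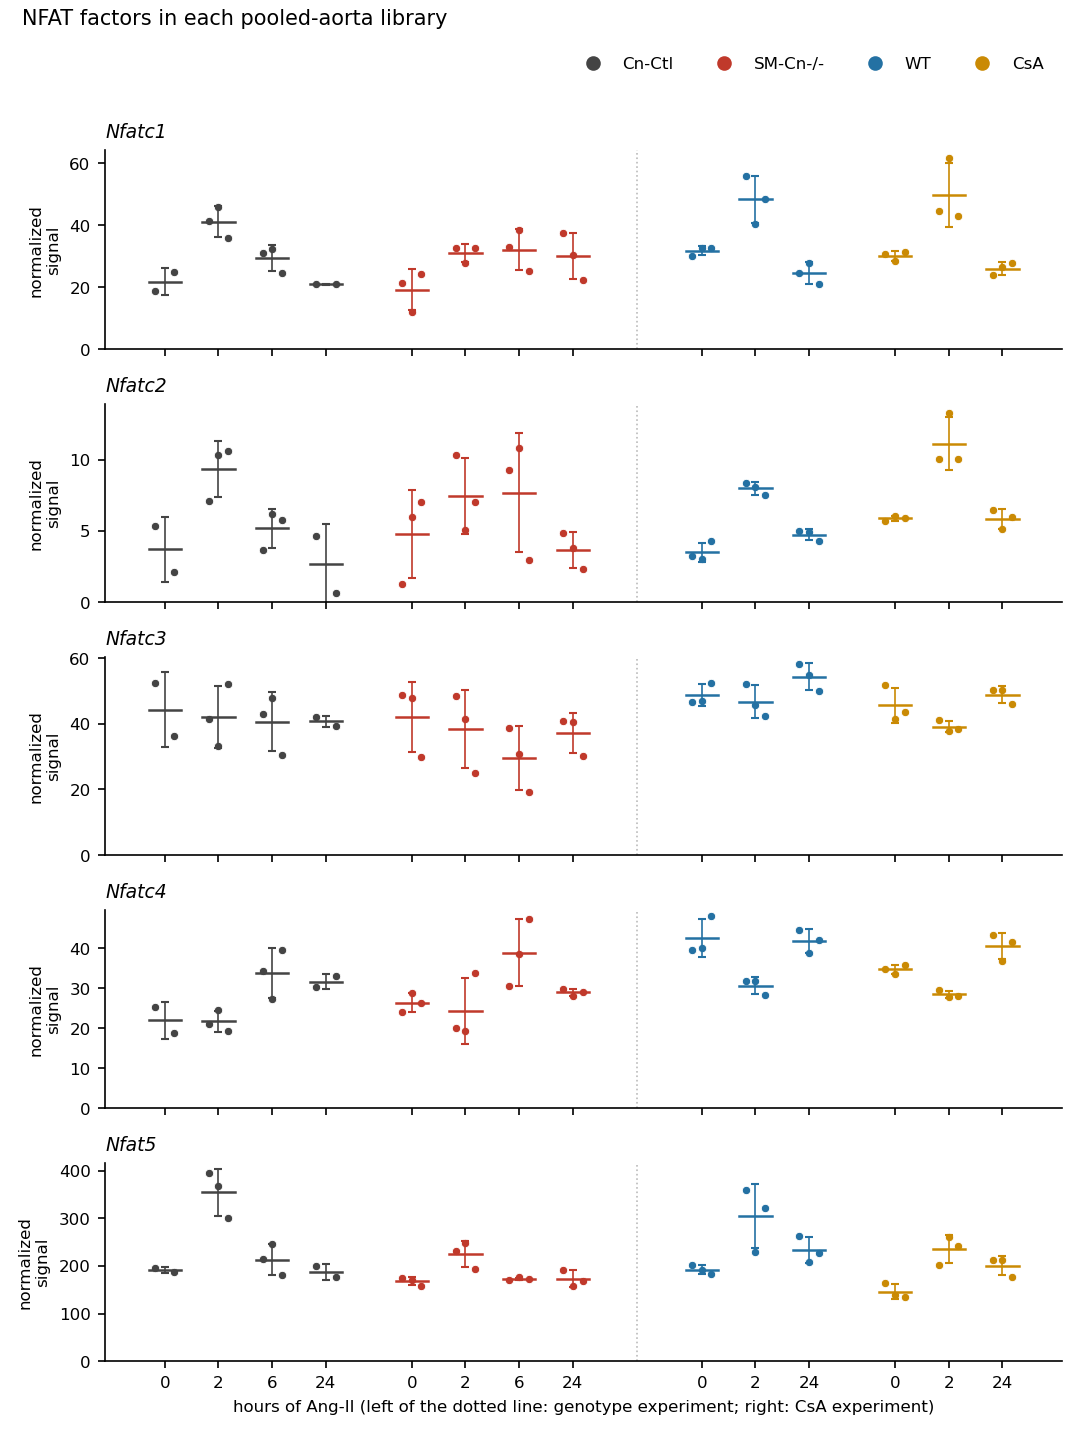
Normalized signal of the 5 NFAT genes (y axes, from 0) in each library, by hours of Ang-II (x axis), for Cn-Ctl and SM-Cn-/- (left of the dotted line) and WT and CsA (right). Points are libraries, horizontal lines are means, and error bars are SD, which the axis clips at 0 for Nfatc2 in Cn-Ctl at 24 h. Nfatc1, Nfatc2, and Nfat5 peak at 2 h in WT and CsA, where Nfatc4 dips.

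The calls after Ang-II were counted within each background. At 2 h 1 of 9 was called in Cn-Ctl (Nfat5, higher), where 6.23% of all genes tested were called. In SM-Cn-/- 0 of 9 were called by limma, and also 0 by edgeR and 0 by DESeq2, with 3 at an unadjusted p under 0.05 (Nfat5, Nfatc1, and Ppp3ca) and 1.13% of all genes called. In WT and in CsA 5 of 9 were called, 4 higher (Ppp3cc, Nfatc1, Nfatc2, and Nfat5) and 1 lower (Nfatc4), where 21.4% and 20.1% of all genes were called. Libraries of 2 h and untreated aorta did not overlap for 5 members in Cn-Ctl and 3 in SM-Cn-/-, where 39.1% and 20.5% of all genes were separated in this way. In the CsA experiment this held for 5 members in WT and 7 in CsA, where 40.5% and 36.9% of all genes were separated. The median log2 fold change of the 9 members was 0.14 in Cn-Ctl, 0.062 in WT, 0.41 in SM-Cn-/-, and 0.22 in CsA, and that of all genes in these 4 comparisons lay between -0.024 and 0.024.

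At 6 h 0 of 9 were called by limma in Cn-Ctl (1 at an unadjusted p under 0.05, with 3.97% of all genes called) and 0 in SM-Cn-/- (2 at an unadjusted p under 0.05, with 2.34% called). At 24 h 0 were called in Cn-Ctl (1 unadjusted, 5.62% of all genes) and 0 in SM-Cn-/- (1 unadjusted, 0.790% of all genes). edgeR and DESeq2 also gave 0 in these 4 comparisons. In WT at 24 h 3 of 9 were called (Ppp3cc and Nfatc2 higher, Nfatc1 lower), where 35.0% of all genes were called, and in CsA 1 of 9 (Ppp3cc), where 8.98% were called. For WT at 24 h edgeR called 2 members and DESeq2 called 1, and for CsA at 24 h edgeR called 1 and DESeq2 called 2. The share of members called lay near that of all genes in both. The summed macrophage markers were 170 to 242 in WT at 24 h against 64.3 to 89.7 untreated, and 150 to 192 in CsA against 143 to 194, and their part in the WT values was not tested.

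**Figure D3:**
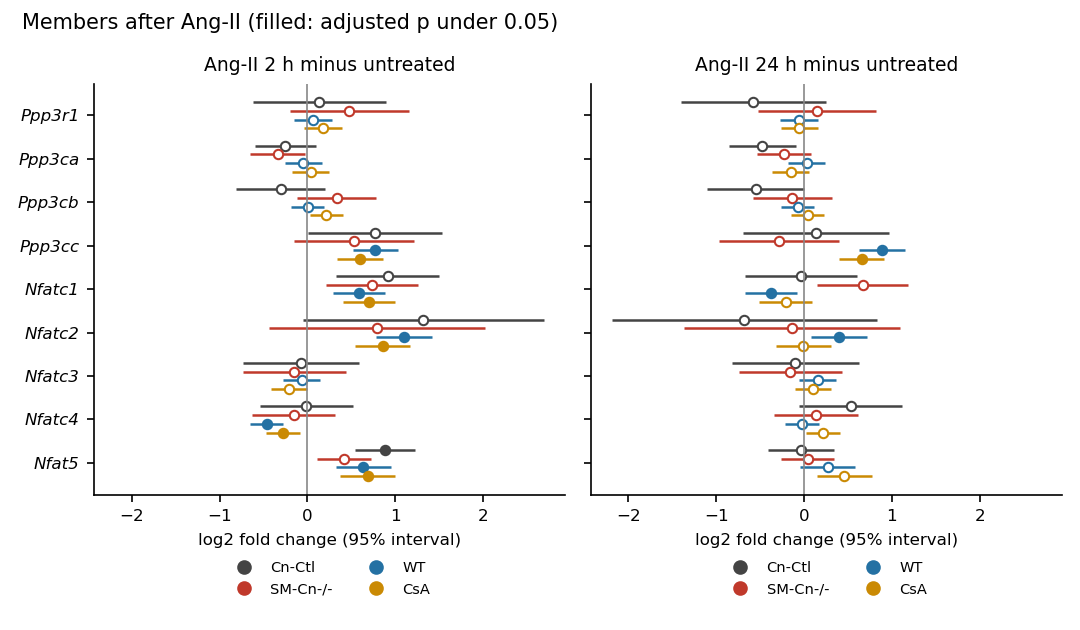
Log2 fold change (x axis) of each of the 9 genes (y axis) after 2 h (left) and 24 h (right) of Ang-II against untreated aorta, with 95% intervals, in the 4 backgrounds. Filled points have an adjusted p under 0.05. At 2 h Ppp3cc, Nfatc1, Nfatc2, and Nfat5 lie above 0 in all 4 backgrounds, with wide intervals in the genotype experiment, and at 24 h Ppp3cc is the gene with filled points above 0 in both WT and CsA.

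From 2 h to 24 h, 2 of 9 members were called in Cn-Ctl (Nfat5, log2 change -0.91, SE 0.16, adjusted p = 0.0017, and Nfatc1), where 7.37% of all genes were called. In SM-Cn-/- limma called 0 (3 at an unadjusted p under 0.05, 0 by edgeR and by DESeq2, and 3.65% of all genes called), with Nfat5 at -0.37 (SE 0.15, adjusted p = 0.16). In WT 3 were called (Nfatc4 higher, Nfatc1 and Nfatc2 lower), where 36.2% of all genes were called, and in CsA 4 (also Nfatc3, higher), where 18% were called.

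The genotypes were compared at each time and averaged over the times to see whether Cre-positive aorta held other amounts of these RNAs. Nfat5 was the member that differed. Averaged over the times, it was lower in SM-Cn-/- by -0.31 on the log2 scale (SE 0.08, adjusted p = 0.010, limma), the 1 of 9 members called where 11.1% of all genes were called. At 2 h the 3 SM-Cn-/- libraries (232, 248, and 194) were all below the 3 Cn-Ctl libraries (395, 369, and 300.0), a difference of -0.66 (SE 0.15, adjusted p = 0.011, limma), again 1 of 9, where 3.70% of all genes were called and 22.2% had groups that did not overlap. In the untreated, 6 h, and 24 h aortas limma, edgeR, and DESeq2 called 0 members, with 0 at an unadjusted p under 0.05, where 0.0139%, 1.98%, and 4.94% of all genes were called.

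Both Nfat5 differences rested partly on the scaling. With quantile normalization they were -0.18 (adjusted p = 0.12) and -0.37 (adjusted p = 0.22), both short of the threshold. The 2 h call was also lost when only the 2 groups were fitted, and without SM-Cn-/- 2 h replicate 3, Cn-Ctl 2 h replicate 1 (adjusted p = 0.089), or Cn-Ctl 2 h replicate 2. At 2 h the summed endothelial markers were 663 to 867 in SM-Cn-/- against 299.5 to 554 in Cn-Ctl, the summed smooth muscle markers 25366 to 31750 against 27390 to 35581, and the macrophage markers 107 to 135 against 73.4 to 181. The genotypes also did not overlap in some markers at other times. The smooth muscle markers were 20899 to 24367 in SM-Cn-/- against 28570 to 29158 in untreated aorta and 23158 to 28994 against 32247 to 33902 at 6 h, and the endothelial markers were 566 to 736 against 323 to 434 in untreated aorta and 1098 to 1165 against 447 to 468 at 24 h. Their part in both differences was not tested.

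Whether the response itself differed between the genotypes was tested by the interaction. For Nfat5 the 2 h response in SM-Cn-/- was smaller by -0.47 (SE 0.22, 95% interval -0.92 to -0.01), which did not pass the correction (adjusted p = 0.61, limma). Limma, edgeR, and DESeq2 called 0 members at 2, 6, and 24 h (1 at an unadjusted p under 0.05 at 2 h, 0 at 6 h, and 0 at 24 h), where 0.513%, 0.0624%, and 0.513% of all genes were called. The intervals were wide for the less abundant members, -2.37 to 1.32 for Nfatc2 and -0.96 to 0.61 for Nfatc1 at 2 h, so that sizeable differences in response remain possible.

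CsA-pretreated and WT aorta were compared in the same way. Averaged over the times, 5 of 9 members differed, where 29.0% of all genes were called: Nfatc2 was higher in CsA by 0.47 (SE 0.09, adjusted p = 0.0014) and Ppp3ca by 0.19, while Nfat5 was lower by -0.32 (SE 0.08, adjusted p = 0.010), Nfatc3 by -0.17 (SE 0.06, adjusted p = 0.038), and Nfatc4 by -0.15 (SE 0.05, adjusted p = 0.047), all by limma. The Nfatc3 call was lost without WT untreated replicate 3, WT 2 h replicate 1, WT 24 h replicate 1 or 2, CsA untreated replicate 2 or 3, CsA 2 h replicate 2 or 3, or CsA 24 h replicate 3 (adjusted p up to 0.086). The Nfatc4 call held in 5 of 18 fits without a library, those without WT untreated replicate 1 or 2, WT 2 h replicate 3, WT 24 h replicate 2, or CsA 24 h replicate 1, and its adjusted p reached 0.098. In untreated aorta the 3 CsA libraries of Nfatc2 (5.68, 6.05, and 5.91) were above the 3 WT libraries (3.21, 3.02, and 4.28), a difference of 0.69 (SE 0.15, adjusted p = 0.0044), and those of Nfatc4 were below (-0.29, SE 0.09, adjusted p = 0.030), by limma. These were the 2 members called there, where 25.2% of all genes were called and 47.8% had groups that did not overlap.

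The untreated Nfatc2 difference was 0.36 (adjusted p = 0.12, limma) with quantile normalization, and the Nfatc4 difference was lost without WT untreated replicate 3 (adjusted p = 0.15) or without any of the 3 untreated CsA libraries. The untreated CsA libraries also stood apart in their marker genes. Summed smooth muscle markers were 16292 to 18338 against 25639 to 35127 in WT, endothelial markers 969 to 1113 against 368 to 625, macrophage markers 143 to 194 against 64.3 to 89.7, and adipose markers 919 to 1635 against 182 to 367. Their part in the member differences was not tested.

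At 2 h 0 of 9 members differed between CsA and WT by limma (4 at an unadjusted p under 0.05, 1.33% of all genes called), and at 24 h 0 of 9 (0 unadjusted, 5.58% of all genes), with 0 by edgeR and DESeq2 at both times. The response to Ang-II was not shown to differ for any member at 2 h or 24 h (0 called by limma, edgeR, or DESeq2 and 0 at an unadjusted p under 0.05, with 0.146% and 9.42% of all genes called). For the members that moved at 2 h the 95% interval of the difference in response, CsA minus WT, was -0.54 to 0.19 for Ppp3cc, -0.31 to 0.53 for Nfatc1, -0.69 to 0.20 for Nfatc2, -0.09 to 0.45 for Nfatc4, and -0.39 to 0.49 for Nfat5.

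**Figure D4:**
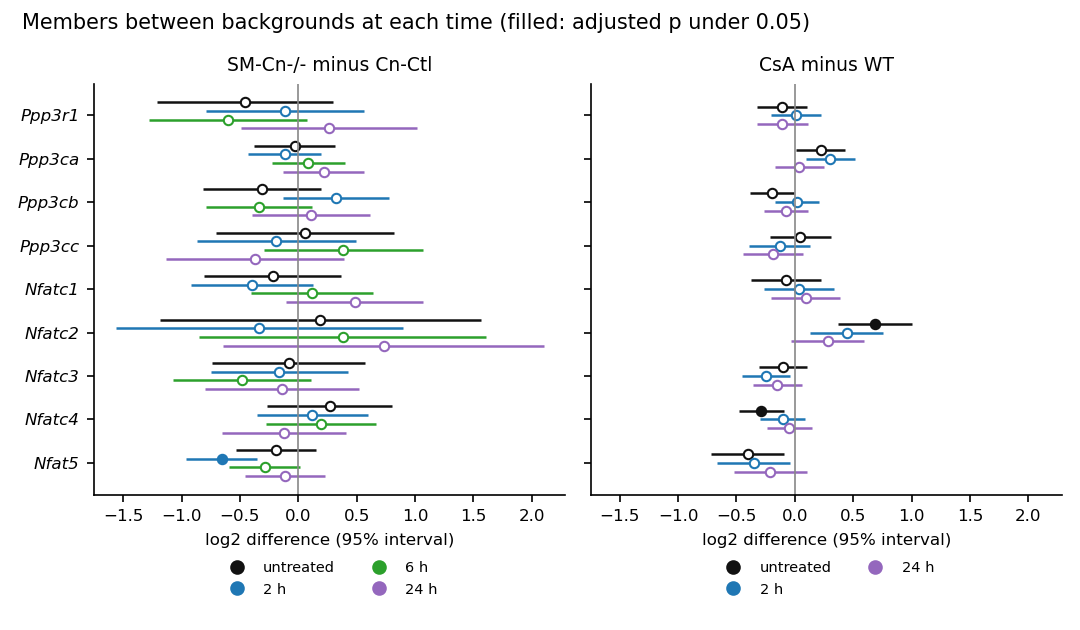
Log2 difference (x axis) of each of the 9 genes (y axis) between SM-Cn-/- and Cn-Ctl (left) and between CsA and WT (right) at each time, with 95% intervals. Filled points have an adjusted p under 0.05. On the left only Nfat5 at 2 h is filled, at -0.66, and on the right only untreated Nfatc2, at 0.69, and untreated Nfatc4, at -0.29.

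The rest of the pathway was read from 5 lists of genes with a known role, chosen with earlier results of these data known. Of all genes tested, the share called higher after 2 h of Ang-II was 4.72% for Cn-Ctl and 0.984% for SM-Cn-/-. It was 11.4% for WT and 12.3% for CsA. The genes called lower at 2 h were 218 of 14424 for Cn-Ctl and 21 of 14424 for SM-Cn-/-. They were 1375 of 13738 for WT and 1077 of 13738 for CsA. The inhibitors, anchors, and cofactors of Cn (15 of 16 genes tested, Ppp3r2 not among them) had 2 genes higher and 0 lower at 2 h in Cn-Ctl, and 1 higher and 1 lower in SM-Cn-/-. WT had 3 higher and 1 lower, and CsA 5 higher and 2 lower. The median log2 fold change was 0.12, 0.094, 0.085, and 0.28 in that order. Rcan1, an endogenous Cn inhibitor and a standard NFAT target, went from a signal of 36.5 ± 12.6 (SD, n = 2) to 384 ± 18.5 (n = 3) in Cn-Ctl and from 34.9 ± 4.06 to 44.5 ± 11.97 (n = 3 each) in SM-Cn-/-. In WT it went from 37.6 ± 7.31 to 296 ± 57.9 and in CsA from 33.7 ± 2.35 to 133 ± 31.4 (n = 3 each). The log2 fold changes of Rcan1 were 3.42 (adjusted p = 1.91e-06), 0.32 (adjusted p = 0.70), 2.96 (adjusted p = 1.67e-07), and 1.93 (adjusted p = 2.9e-05) in that order, and at 2 h SM-Cn-/- was below Cn-Ctl by -3.13 (adjusted p = 3.28e-06) and CsA below WT by -1.16 (adjusted p = 0.018), by limma. Between the groups at 2 h, 2 genes of this list were lower and 0 higher in SM-Cn-/- than in Cn-Ctl, and 1 was lower and 0 higher in CsA than in WT, where 2.97% and 0.939% of all genes were lower. The -1.16 was lost without WT 2 h replicate 1 or 3 or CsA 2 h replicate 1 (adjusted p up to 0.13 when only the 2 groups were fitted). Myoz2, a sarcomere protein that binds Cn, rose at 2 h in all 4 backgrounds, by 3.36 in Cn-Ctl, 2.36 in WT, 1.62 in SM-Cn-/-, and 1.52 in CsA. In CsA Ppia, the CsA-binding cyclophilin A, rose by 0.36 (adjusted p = 0.021, limma) and Akap1, a mitochondrial anchoring protein, fell by 0.75 on the log2 scale (adjusted p = 0.026, limma). Akap1 also fell by 0.96 in SM-Cn-/- (adjusted p = 0.043, limma), which 14 of 22 fits without a library lost, up to an adjusted p of 0.18 without SM-Cn-/- 2 h replicate 1.

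The 9 genes for kinases and the exportin that return NFAT to the cytoplasm had 1 gene higher and 0 lower at 2 h in Cn-Ctl, and 0 of either kind in SM-Cn-/-. WT had 3 higher and 1 lower, and CsA 4 higher and 1 lower. The median log2 fold change was 0.21, 0.086, 0.15, and 0.26 in that order. The 1 of 9 in Cn-Ctl and 0 of 9 in SM-Cn-/- are near the 6.23% and 1.13% of all genes called. In neither experiment did limma call a difference between the groups at 2 h for them. Csnk1e, a casein kinase 1, rose by 0.80 in Cn-Ctl (adjusted p = 0.043, limma), 0.47 in WT, and 0.60 in CsA, with 0.02 in SM-Cn-/- (adjusted p = 0.97). The Cn-Ctl call was lost under 4 of 12 alternatives and in 8 of 22 fits without a library, up to an adjusted p of 0.31 without Cn-Ctl untreated replicate 2. In WT and CsA Csnk1d rose by 0.48 and 0.50 and Dyrk1a by 0.64 and 0.46, while Xpo1, the export receptor, fell by 0.70 and by 0.37 on the log2 scale.

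The nuclear partners of NFAT (12 genes, of the AP-1, GATA, MEF2, and Homer families) had 4 genes higher and 0 lower at 2 h in Cn-Ctl (median log2 fold change 0.97, against 0.011 for all genes) and 0 and 0 in SM-Cn-/- (median 0.21, against -0.011). In WT 6 were higher and 0 lower (median 0.40), and in CsA 7 and 1 (median 0.51). At 2 h 5 of them were lower in SM-Cn-/- than in Cn-Ctl and 2 lower in CsA than in WT, with 0 higher. Of all genes, 2.97% and 0.939% were lower in these comparisons. The AP-1 gene Fos rose by 3.45 in Cn-Ctl (signal 22.1 ± 8.43, n = 2, to 280 ± 167, n = 3), and in SM-Cn-/- it went from 17.6 ± 4.31 to 16.3 ± 2.72 (n = 3 each, log2 fold change -0.09, adjusted p = 0.95). In WT Fos rose by 4.47 and in CsA by 2.45. Jun rose by 2.27 in Cn-Ctl, 2.34 in WT, and 1.77 in CsA, and its change was 0.20 in SM-Cn-/- (adjusted p = 0.67). Fosl1 rose by 3.83, 4.13, and 3.26 and Fosl2 by 2.40, 1.66, and 1.81 in Cn-Ctl, WT, and CsA, with 1.52 (adjusted p = 0.42) and 1.05 (adjusted p = 0.051) in SM-Cn-/-. All of these tests were by limma.

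The 16 known Cn-NFAT targets, among them Rcan1 and the member Nfatc1, had 6 genes higher at 2 h in Cn-Ctl (median 1.62), 1 in SM-Cn-/- (median 0.39), 8 in WT (median 0.83), and 8 in CsA (median 0.71), with 0 lower in each. At 2 h 6 of them were lower in SM-Cn-/- than in Cn-Ctl and 2 lower in CsA than in WT, with 0 higher. The shares of all genes lower there were 2.97% and 0.939%. The 1 target called in SM-Cn-/- was Adamts1, a secreted protease, which rose by 1.53 (adjusted p = 0.0025) there and by 2.62 in Cn-Ctl, 2.07 in WT, and 2.09 in CsA. Ptgs2, the inducible cyclooxygenase, rose by 4.45 in Cn-Ctl, 2.86 in WT, and 2.90 in CsA, with 1.83 in SM-Cn-/- (adjusted p = 0.080). Cdkn1a, a cell-cycle inhibitor, rose by 2.98, 2.22, and 0.76 in Cn-Ctl, WT, and CsA, with 1.10 in SM-Cn-/- (adjusted p = 0.12), all by limma.

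The 8 known Nfat5 targets, which include Nfat5 itself, had 3 genes higher at 2 h in Cn-Ctl and, in SM-Cn-/-, 0, while 4 of the 7 tested in the CsA experiment were higher in WT and 4 in CsA, with 0 lower in each. Nfat5 is 1 of the genes counted in all but SM-Cn-/-. The median log2 fold change was 0.57, -0.015, 0.64, and 0.62 in that order. At 2 h 3, Nfat5 among them, were lower in SM-Cn-/- than in Cn-Ctl (median -0.52, with 2.97% of all genes lower), and limma called 0 between CsA and WT (median -0.25). The heat shock genes Hspa1b and Hspa4l rose by 5.15 and 2.03 in Cn-Ctl, 4.21 and 1.47 in WT, and 4.55 and 1.08 in CsA, and their changes in SM-Cn-/- were 0.98 (adjusted p = 0.32) and 0.10 (adjusted p = 0.91). Slc5a3, the inositol transporter known from osmotic stress, rose by 0.72 in WT (adjusted p = 0.014) and had 0.17 in CsA (adjusted p = 0.57), 0.64 in Cn-Ctl (adjusted p = 0.29), and -0.44 in SM-Cn-/- (adjusted p = 0.52). Slc38a2, an amino acid transporter, rose by 0.62 in CsA (adjusted p = 0.012) and had 0.26 in WT (adjusted p = 0.27), 0.49 in Cn-Ctl (adjusted p = 0.21), and 0.30 in SM-Cn-/- (adjusted p = 0.51), by limma. Hspa1b and its near-identical copy can share reads, so its value is uncertain.

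Among 10347 genes compared across libraries in both tables, the closest in pattern to Nfat5 were Mpp5 (Pearson r of 0.91 over 22 libraries and 0.91 over 18), Usp47 (0.91 and 0.92), and Lats2 (0.91 and 0.90). The closest to Nfatc2 were Aggf1 (0.74 and 0.78), Tob2 (0.72 and 0.77), and Usp53 (0.70 and 0.71). These values are descriptions: the libraries share groups, depth, and tissue composition.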

How the data were processed

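The data were RNA-seq of total RNA from mouse aorta, reverse-transcribed from oligo-dT primers, in 22 libraries of the genotype experiment and 18 of the CsA experiment. According to the submitters' processing notes and the methods of the study, reads were aligned with Bowtie (version 0.12.7) and assigned with RSEM (version 1.16) to GRCm38. The authors deposited 1 table per experiment, in which each value is a normalized signal, (reads + 0.5) divided by a scaled library size. Whole reads could be recovered from all values, giving 2.73 to 10.25 M reads per library in the genotype experiment and 18.98 to 38.9 M in the CsA experiment, and were used for edgeR and DESeq2. 1 untreated Cn-Ctl library had been left out by the authors after principal component analysis.

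Groups were taken from the sample labels. For each table, limma (version 3.58.1, with an intensity trend, in R 4.3.3) was fitted over all groups to log2(signal + 0.5), with adjustment over all protein-coding genes. The 28 comparisons were Ang-II against untreated, 24 h against 2 h, genotype or CsA at each time and averaged, and the difference in response. Ang-II comparisons within a background share their untreated libraries. The named genes were the 9 members, up to 4 genes per list that passed in most of the comparisons, and the 3 genes most like a member. The members and lists were chosen with earlier results of these data known. The fit and the permutation test were tested on simulated data. Alternatives were another scaling (median-ratio or quantile), pseudocount, filter, gene set, design or tool (edgeR 4.0.16 and DESeq2 1.42.0), and leaving out each library. 0 columns of the tables were left without a sample. Transcript lengths and exons came from the GRCm38 annotation and promoters from RefSeq. One list gene is not reported here.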

Additional observations from a re-analysis of the deposited data

Results flagged for a closer look

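For no member was a difference in the response to Ang-II called between genotypes or between CsA and WT. Over all genes tested, the share with a called difference in response between genotypes was 0.513% at 2 h, 0.0624% at 6 h, and 0.513% at 24 h. Between CsA and WT it was 0.146% at 2 h and 9.42% at 24 h. Of the genes in the 5 pathway lists, 19 differences in response passed the test of the interaction itself (limma, Benjamini-Hochberg adjusted), 14 smaller and 5 larger in the SM-Cn-/- or CsA background. The 11 of genes named by the rule, all of them smaller, are given here. That rule took the genes called in most comparisons against untreated or at 2 h between groups. It used these same data and could favour smaller responses, so the shared direction of the 11 is no separate result. Of the other 8, 5 were larger and 3 smaller. Between SM-Cn-/- and Cn-Ctl at 2 h, the log2 response was smaller by -3.10 for Rcan1 (adjusted p = 0.00289), -3.54 for Fos (adjusted p = 0.0101), -2.06 for Jun (adjusted p = 0.00102), -1.74 for Myoz2 (adjusted p = 0.0115), -1.93 for Hspa4l (adjusted p = 0.0385), and -4.16 for Hspa1b (adjusted p = 0.0022). At 24 h the Myoz2 response was smaller by -1.67 (adjusted p = 0.0281). The SM-Cn-/- libraries at 2 h also had more endothelial marker signal (663 to 867 against 299.5 to 554). The same held for untreated aorta (566 to 736 against 323 to 434) and at 24 h (1098 to 1165 against 447 to 468). Smooth muscle markers were lower in untreated SM-Cn-/- (20899 to 24367 against 28570 to 29158) and overlapped at 2 h and 24 h. The part of these markers in the result was not tested.

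Between CsA and WT, the response was smaller by -1.47 for Cdkn1a at 2 h (adjusted p = 0.0416) and, at 24 h, by -1.67 for Cdkn1a (adjusted p = 0.00336), -1.28 for Rcan1 (adjusted p = 0.0168), and -2.53 for Fosl1 (adjusted p = 0.0226). The CsA and WT libraries did not overlap in the summed smooth muscle markers when untreated (16292 to 18338 against 25639 to 35127) and at 2 h (20022 to 25876 against 28291 to 35546), nor in the endothelial markers when untreated (969 to 1113 against 368 to 625) and at 2 h (795 to 973 against 561 to 617), and their part in the result was not tested. Among the other 8 calls, named after their values were seen, were larger responses of Dyrk1b, Mef2a, and Mef2c and smaller ones of Il6 and Spp1 at 24 h in CsA, a larger one of Mef2c at 24 h in SM-Cn-/-, and a smaller one of Nr4a1 at 2 h in SM-Cn-/-.

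The Jun and Hspa1b differences held under all 12 alternatives and without any single library, and those of Rcan1 and Fos at 2 h were lost without Cn-Ctl untreated replicate 2 (adjusted p = 0.0585 and 0.140). Without that library the adjusted p of Myoz2 was 0.171 at 2 h and 0.215 at 24 h, and that of Hspa4l was 0.209. The Rcan1 difference at 24 h was lost without CsA 24 h replicate 2 (adjusted p = 0.0532) or WT untreated replicate 2, that of Fosl1 without WT 24 h replicate 2 (adjusted p = 0.0710), CsA 24 h replicate 2, or CsA untreated replicate 3, and that of Cdkn1a at 2 h in 14 of 18 fits without a library, up to an adjusted p of 0.146 without WT untreated replicate 2.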

How the results depend on the processing

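The 33 calls of members kept their direction and side of the threshold in 365 of 396 refits under the 12 alternatives and in 544 of 614 refits without a library, and 0 reversed. 20 calls held in every refit. With quantile normalization the count of called members fell from 1 to 0 for 2 h in Cn-Ctl, for genotype at each time, and for genotype averaged over the times, and from 2 to 1 for CsA at each time. The count for 2 h in Cn-Ctl rose to 2 with median-ratio scaling, with a filter of a signal of 5, with only the 2 groups fitted, and with DESeq2, while that for genotype at each time fell to 0 with only the 2 groups fitted. The count of 4 for 6 h and 24 h fell to 2 with a pseudocount of 2, and the count of 5 for CsA averaged over the times fell to 3 without the trend. The cause of these changes was not tested.

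Without single libraries the counts ranged from 1 to 2 for 2 h in Cn-Ctl (2 without SM-Cn-/- untreated replicate 2 or 3, 6 h replicate 3, or 24 h replicate 3, or Cn-Ctl 6 h replicate 3), from 4 to 5 for 2 h in CsA, from 8 to 10 for 24 h against 2 h, from 2 to 4 for 6 h and 24 h, from 1 to 4 for CsA at each time (4 without WT 2 h replicate 2), from 3 to 5 for CsA averaged, and from 0 to 1 for genotype at each time. They stayed at 5 for 2 h in WT, 0 for 2 h in SM-Cn-/-, 1 for genotype averaged, and 0 for the differences in response. The count for 6 h and 24 h was 2 without WT untreated replicate 1 or 2, any untreated CsA library, WT 2 h replicate 3, WT 24 h replicate 1, or CsA 24 h replicate 1. Where 1 Cn-Ctl library was left in a group, it was assumed to vary like the other groups. Of 73 values of pathway genes, 50 held in every refit and 0 reversed.

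Libraries with the same replicate number did not all deviate together (r of -0.374 to 0.339 in the genotype and -0.389 to 0.377 in the CsA experiment). In the genotype experiment 27 of 71 same-number pairs had an r over 0.1 (median 0.059), against 36 of 140 pairs of unlike number (median -0.042). In the CsA experiment the medians were -0.028 and -0.013. A weak likeness by number in the genotype experiment therefore remains possible, and the main fit did not use the numbers. With the replicate number as a block, the count for 6 h and 24 h fell from 4 to 2, that for 24 h against 2 h from 9 to 8, and that for CsA averaged from 5 to 4. The genotype libraries, with 2 to 75 reads of Nfatc2, limit what could be seen of this gene there.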
